A study of Mus musculus with 6 samples.

Results

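Carbonic anhydrases are zinc enzymes that turn carbon dioxide and water into bicarbonate and a proton, and back. Mouse liver is known for a very abundant cytosolic form of low activity, Car3, while mitochondrial forms supply bicarbonate to the enzymes that start urea synthesis and gluconeogenesis. In rat liver Car3 is known as a male-predominant protein whose level depends on the pattern of growth hormone release. The members were 9 carbonic anhydrase genes, Car1, Car2, Car3, Car4, Car5a, Car5b, Car8, Car13 and Car14, each represented by the array rows annotated with that symbol alone. Of the 9, 7 had such a row, 1 each, among 18820 genes in all. Car5a and Car14 stood in rows annotated with a second gene (BC048644 and Aph1a) and have no value here, so the liver's main mitochondrial form and the hepatocyte membrane form are not described. The members were chosen by family name with the signal differences of these arrays in view, Car3 above all, and their differences are therefore given as descriptions with no test.

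Gene expression was measured on Affymetrix arrays in whole liver of 6 C57BL6 mice aged 2 months, 4 with the genotype Pcyt2+/- (replicates 1 to 4) and 2 wild type (replicates 3 and 4). The titles name the first group knock-out, the genotype field gives Pcyt2+/-, and the genotype field is followed. Pcyt2 makes CDP-ethanolamine for phosphatidylethanolamine synthesis. No other allele, agent or treatment is given for either group, and neither source used here states the sex or feeding of the mice.

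The values are log2 signals, and 94.4% of all probe sets had a mean between 4 and 5, a low band near the array medians of 4.40. All 9 measured hepatocyte markers lay above that band, with means of 7.44 to 12.29. Pcyt2 had 4.638, 4.657, 4.669 and 4.604 on the Pcyt2+/- arrays, against 4.887 and 4.796 on the wild type arrays. The groups did not overlap, and the difference was -0.20 (SE 0.028). With each array's median signal subtracted on the linear scale before the log, the difference was -0.97, so its size depends on how this background is treated. The difference of -0.20 did not pass the test over all genes (limma, adjusted p = 0.264), and a two-sided exact permutation test gave 0.0667, the smallest p that the 15 splits allow. At an adjusted p under 0.05 limma called 0 of 18820 genes (0%), and 998 had an unadjusted p under 0.05. With a trended and robust variance prior it called 9.

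Car3 was the only 1 of the 7 measured carbonic anhydrases outside the low band, and its signal was higher in Pcyt2+/- liver. It was 10.514, 10.652, 10.570 and 10.564 (log2) in Pcyt2+/- replicates 1 to 4, against 10.008 and 9.375 in wild type replicates 3 and 4. Every Pcyt2+/- array lay above both wild type arrays, and the Pcyt2+/- arrays lay close together while the wild type arrays did not. The means were 10.58 ± 0.057 (SD, n = 4) in Pcyt2+/- and 9.69 ± 0.45 (SD, n = 2) in wild type, so that Car3 differed by 0.88 on the log2 scale, which is 1.85-fold. In whole tissue, more cells of a type and more RNA per cell cannot be told apart.

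The size of the Car3 difference depended on the wild type arrays. Car3 spanned 0.139 across the 4 Pcyt2+/- arrays, against 0.633 between the 2 wild type arrays. Between the nearest arrays of the groups the signal was 1.42-fold higher in Pcyt2+/-, and between the farthest 2.42-fold. The difference was 0.57 without wild type replicate 4 and 1.20 without wild type replicate 3, and leaving out any Pcyt2+/- array gave 0.86 to 0.90. Among the 792 genes with a mean above 5, only 15, Car3 included, had a gap between the wild type arrays at least as wide, while 335, Car3 included, had a Pcyt2+/- range no wider than that of Car3. So among genes with a mean above 5 the tightness of the Pcyt2+/- arrays was common, and the distance between the wild type arrays was not. This set begins at the low band, where the background narrows log2 differences, while Car3 had a mean of 10.28. Genes nearer to Car3 in brightness were not read apart.

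Against all genes, Car3 stood at the upper end of the differences. A log2 difference of at least 0.5 in the higher direction was seen for 6 genes (0.0319%), Car3 among them, and 2 genes had a larger one than Car3. Of the 18820 genes, however, 18028 had a mean of at most 5, where the background narrows log2 differences. The share among brighter genes alone was not computed, so the 0.0319% makes Car3 look rarer than a like set might. Among genes with a mean above 5, 298 of 792 (37.6%) had a higher mean in Pcyt2+/-, with a median difference of -0.020. Car3 thus lay on the less common side among genes with a mean above 5. Since Car3 was picked with this contrast in view, its place is a description only.

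**Figure D1:**
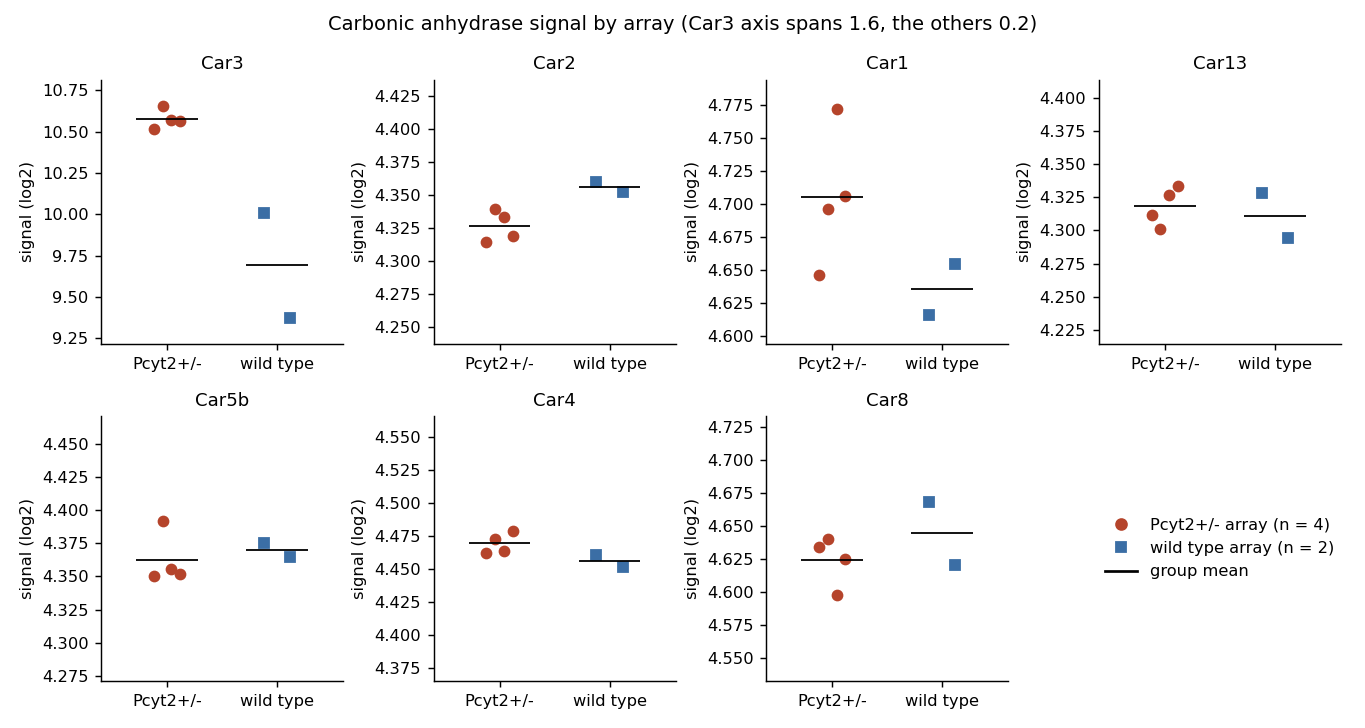
Log2 signal of the 7 measured carbonic anhydrases on each array, Pcyt2+/- (circles, n = 4) left of wild type (squares, n = 2), with group means as bars. The Car3 axis covers a wider range than those of the other panels: Car3 lies between 10.514 and 10.652 in Pcyt2+/- and at 10.008 and 9.375 in wild type, while the other 6 genes stay between 4.294 and 4.772.

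The other 6 measured carbonic anhydrases lay in the low band on every array, between 4.294 and 4.772. Of all 7, 4 had a higher mean in Pcyt2+/- (Car1, Car3, Car4 and Car13), beside 48.1% of all genes, and 3 a lower one (Car2, Car5b and Car8). The groups did not overlap for 3 of the 7. Car3 and Car4 were above wild type, beside 5.67% of all genes, and Car2 was below, beside 7.17%. The median difference of the 7 was 0.0073, against -0.00073 over all genes, and the median absolute difference of the 6 dim members was 0.017, against 0.010 over the 18028 genes with a mean of at most 5.

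The cytosolic forms Car1, Car2 and Car13 are neighbours of Car3 on chromosome 3, in the order Car13, Car1, Car3, Car2. Car2, the fast cytosolic enzyme of many tissues, had 4.314, 4.339, 4.333 and 4.319 on the Pcyt2+/- arrays, against 4.360 and 4.352 on the wild type arrays. Each Pcyt2+/- array was thus below both wild type arrays, but by little: the difference was -0.030, with 4.326 ± 0.011 (SD, n = 4) in Pcyt2+/- and 4.356 ± 0.0062 (SD, n = 2) in wild type. Car1, the main form of red cells beside Car2, had 4.646, 4.696, 4.772 and 4.706 on the Pcyt2+/- arrays, against 4.616 and 4.655 on the wild type arrays. The groups overlapped through Pcyt2+/- replicate 1, and the difference was 0.070.

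Car13, a further cytosolic enzyme, had 4.312, 4.301, 4.327 and 4.334 on the Pcyt2+/- arrays, against 4.328 and 4.294 on the wild type arrays. The wild type values enclosed 3 of the 4 Pcyt2+/- values, and the difference of 0.0073 was -0.0098 without wild type replicate 4 and 0.024 without wild type replicate 3 (0.0132, 0.0044 and 0.0021 without Pcyt2+/- replicates 2, 3 and 4). The largest absolute difference of the 3 neighbours of Car3 was thus the 0.070 of Car1. The genes that flank the group were also dim. Rbis, next to Car13, differed by 0.078 (SE 0.019), and Gm9733, next to Car2, by 0.021 (SE 0.0094). Neither passed over all genes (limma, adjusted p = 0.662 and 0.936).

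Unlike the liver form Car5a, Car5b is a mitochondrial form of wider tissue range. It had 4.350, 4.392, 4.356 and 4.352 on the Pcyt2+/- arrays, against 4.375 and 4.365 on the wild type arrays. The wild type values fell inside the Pcyt2+/- range because of replicate 2, and the difference of -0.0078 was -0.018 without that array (-0.0036 and -0.0042 without Pcyt2+/- replicates 1 and 4, -0.0029 and -0.0127 without wild type replicates 3 and 4). Car4, an enzyme held on the outer cell surface by a lipid anchor, had 4.462, 4.473, 4.464 and 4.479 on the Pcyt2+/- arrays, against 4.461 and 4.452 on the wild type arrays. The highest wild type value and the lowest Pcyt2+/- value nearly met, and the difference was 0.013 (0.0083 without wild type replicate 4).

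Car8 is a relative that lacks carbonic anhydrase activity and binds the inositol trisphosphate receptor. It had 4.634, 4.640, 4.598 and 4.625 on the Pcyt2+/- arrays, against 4.668 and 4.621 on the wild type arrays. The groups overlapped, and the difference of -0.021 turned to 0.0029 without wild type replicate 3 (it was -0.044 without wild type replicate 4 and -0.012 without Pcyt2+/- replicate 3). Log2 differences of signals this near the array median are small also because the median signal itself is part of them. With each array's median signal subtracted on the linear scale, possible for members with a mean above 4.6, the difference was 0.40 for Car1, -0.14 for Car8 and 0.90 for Car3. On that scale Car1 and Car8 overlapped between the groups as before, and Car3 did not.

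Carbonic anhydrases outside the 9 were equally dim. They comprise the secreted Car6, the cytosolic Car7, the transmembrane Car9 and Car12, the inactive relatives Car10 and Car11, and the membrane-anchored Car15. All 7 had means between 4.28 and 4.66, 5 were higher and 2 lower in Pcyt2+/-, and the median difference was 0.0090 (0.0055 without Pcyt2+/- replicate 1, and 0.0081 to 0.0111 without any other array). None passed over all genes or had an unadjusted p under 0.05 by limma. Their differences ran from -0.016 for Car9 (-0.028 without wild type replicate 3 and -0.0051 without wild type replicate 4) to 0.025 for Car10 (0.017 without Pcyt2+/- replicate 2). At such signals the background narrows log2 differences, so these cannot be set against the 0.88 of Car3 on a like scale.

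Genes whose products use bicarbonate were set beside the family. Cps1, the mitochondrial enzyme that joins bicarbonate and ammonia at the start of the urea cycle, had 8.689, 8.689, 8.557 and 8.414 on the Pcyt2+/- arrays, against 8.953 and 9.332 on the wild type arrays. It was lower on every Pcyt2+/- array than on both wild type arrays. Its means were 8.59 ± 0.13 (SD, n = 4) in Pcyt2+/- and 9.14 ± 0.27 (SD, n = 2) in wild type, a difference of -0.56 that did not pass (limma, adjusted p = 0.529) and was -0.37 without wild type replicate 4. Of 8 measured bicarbonate-using enzymes, 0 passed in either direction, with a median difference of -0.013 (-0.0072 without Pcyt2+/- replicate 2). Only Cps1 had a mean above 5, so the median and the other differences are of signals in the low band. At an unadjusted p under 0.05 there were 1 higher (Mccc1, of leucine breakdown, 0.032) and 2 lower (Cps1 and Pccb, of propionate breakdown, -0.028). Over all genes those shares were 1.86% higher and 3.44% lower. The pyruvate carboxylase Pc, which uses mitochondrial bicarbonate, was not analysed here.

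Genes of ammonium and glutamine handling mostly had lower means in Pcyt2+/-, with a median difference of -0.096 over 9 measured genes. Of these, 8 had a lower mean, 0 passed over all genes, and an unadjusted p under 0.05 by limma was seen for 5 lower and 0 higher. Over all genes 48.1% had a higher mean, and at that p 3.44% were lower and 1.86% higher. This list, like the others here, was chosen with earlier results of these data known, so the counts are descriptions. Arg1, which releases urea, had 5.334, 5.378, 5.345 and 5.271 on the Pcyt2+/- arrays, against 5.960 and 6.280 on the wild type arrays. The Pcyt2+/- arrays lay close together, and wild type replicate 4 was the farthest from them. Arg1 differed by -0.79 (SE 0.080; limma, adjusted p = 0.130). Arg1 passed limma in 4 of the other settings, with the floor subtracted (adjusted p = 0.0248), among genes with a mean above 5 (0.0366), with a trended and robust prior (0.016) and without wild type replicate 3 (0.00251). Glud1, the glutamate dehydrogenase, had -0.13, Asl, the argininosuccinate lyase, -0.15 (-0.10 without wild type replicate 4), and Slc25a13, a mitochondrial aspartate carrier, -0.096 (-0.044 without wild type replicate 3 and -0.148 without wild type replicate 4).

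Genes for the transport of bicarbonate and protons had medians near 0. Of 13 measured bicarbonate transporters, all of them in the low band, 0 passed and 0 had an unadjusted p under 0.05 by limma, with a median difference of -0.0042 (-0.0109 to -0.0012 with 1 array left out, -0.0109 without Pcyt2+/- replicate 3, and -0.0013 and -0.0012 without replicate 4 of Pcyt2+/- and of wild type). The basolateral sodium bicarbonate cotransporter Slc4a4 had 4.635 ± 0.037 (SD, n = 4) in Pcyt2+/- and 4.687 ± 0.0028 (SD, n = 2) in wild type. Of 9 measured genes of proton and lactate transport 0 passed, with 1 higher (Slc9a3, a sodium-proton exchanger, 0.030) and 1 lower (Slc16a7, a monocarboxylate carrier, -0.13, and -0.075 without wild type replicate 3) at an unadjusted p under 0.05. Of the 9, only Bsg had a mean above 5 (6.37), so the other differences are of signals in the low band. The list median of 0.0046 turned to -0.0076 without wild type replicate 3 and to -0.00081 without Pcyt2+/- replicate 1 (0.0026 and 0.00016 without Pcyt2+/- replicates 2 and 3, and 0.0027 without wild type replicate 4).

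**Figure D2:**
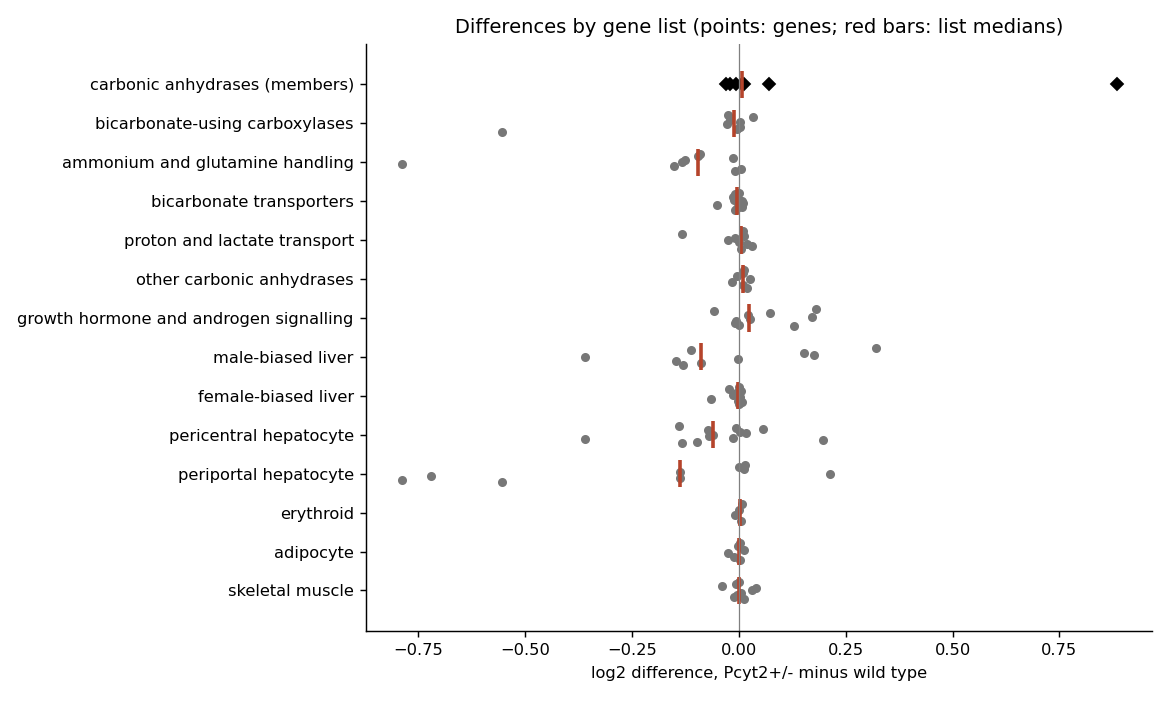
Log2 differences, Pcyt2+/- minus wild type, of the carbonic anhydrases (diamonds, top row) and of genes in the other lists (circles), with list medians as red bars. Car3 lies at 0.88 apart from the other members near 0, and the list of ammonium and glutamine handling has a median of -0.096. The other members lie in the low band, where the background narrows log2 differences.

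Growth hormone signalling was examined because Car3 depends on it in rat liver. Of 10 measured genes 0 passed over all genes. At an unadjusted p under 0.05 by limma 3 were higher and 0 lower, beside 1.86% and 3.44% of all genes. This list too was chosen with earlier results of these data known, so the counts are descriptions. Only 2 of the 10, Ghr and Igf1, had a mean above 5, and the others, Onecut1 included, lay in the low band. The median difference was 0.024 (0.013 without Pcyt2+/- replicate 2, and 0.046 and 0.058 without replicate 3 of Pcyt2+/- and of wild type). Socs2, a feedback inhibitor induced by growth hormone, had 4.606, 4.652, 4.592 and 4.586 on the Pcyt2+/- arrays, against 4.479 and 4.399 on the wild type arrays. Its groups did not overlap, all its values lay in the low band, and it differed by 0.17 (SE 0.027; limma, adjusted p = 0.321). Ghr, the growth hormone receptor, differed by 0.13 (SE 0.033), and Onecut1, a hepatocyte factor that growth hormone induces in rat, by 0.18 (SE 0.044), each with an adjusted p of 0.662 by limma. Igf1, the growth factor made on growth hormone signals, had 6.488 ± 0.14 (SD, n = 4) in Pcyt2+/- and 6.487 ± 0.068 (SD, n = 2) in wild type.

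**Figure D3:**
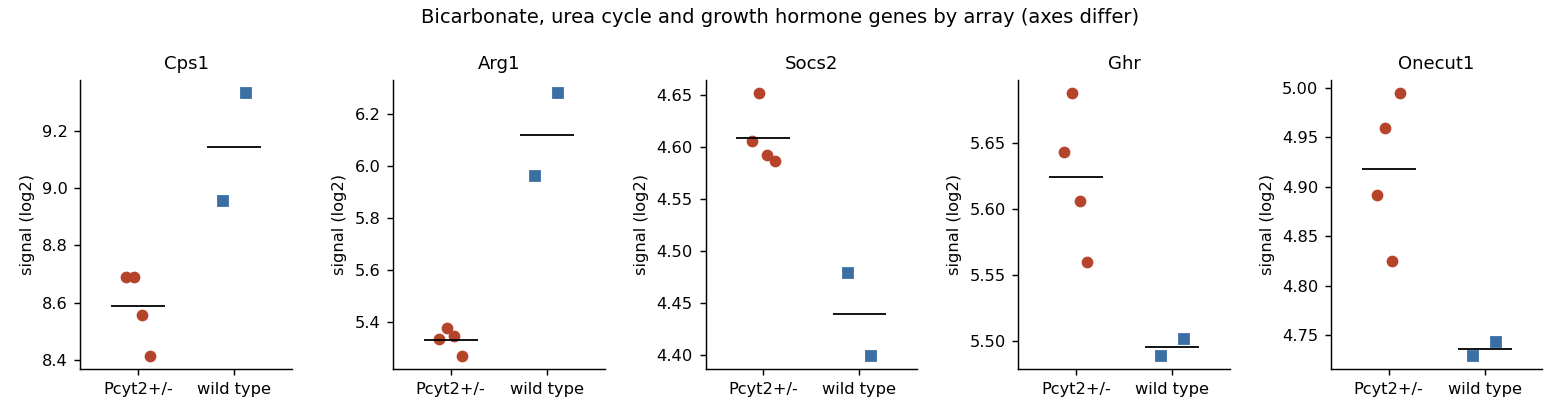
Log2 signal by array of Cps1, Arg1, Socs2, Ghr and Onecut1, Pcyt2+/- (circles, n = 4) left of wild type (squares, n = 2), with group means as bars and a separate axis for each gene. Cps1 and Arg1 have lower and Socs2, Ghr and Onecut1 higher values in all 4 Pcyt2+/- livers than in both wild type livers, and none passed limma over all genes in the settings of the text, while Arg1 passed in 4 others.

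Sex-dependent genes were read because Car3 is sex-dependent in rat liver. The 4 measured sex-linked genes, Xist among them, lay between 4.18 and 4.39 on every array and gave no reading. Of 9 measured male-biased genes 8 had a mean above 5, and of 10 measured female-biased genes 0 did. The summed linear signal of the male-biased genes ran from 3395 to 4568 over the Pcyt2+/- arrays and from 3182 to 4475 over the wild type arrays, so the groups overlapped. Most of that sum was Mup20 (mean 11.51), so it says little about the other male-biased genes. The summed linear signal of the female-biased genes ran from 195.1 to 196.9 in Pcyt2+/- and from 197.1 to 198.0 in wild type. These ranges did not overlap. All 10 genes, however, lay in the low band, with means of 4.12 to 4.49, so their sum is mostly background. No gene of either list passed over all genes. The median difference was -0.089 for the male-biased list (0.24 without wild type replicate 4, 0.13 without Pcyt2+/- replicate 2 and -0.27 without wild type replicate 3) and -0.00098 for the female-biased list (-0.00065 without Pcyt2+/- replicate 1, and -0.0090 to -0.0027 without any other array). At an unadjusted p under 0.05 stood Hsd3b5, a male-biased steroid dehydrogenase (0.18, and 0.11 without wild type replicate 3), and Cyp17a1, a female-biased steroid hydroxylase (-0.065, with -0.030 without wild type replicate 4 and -0.10 without wild type replicate 3).

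Adipocytes and skeletal muscle hold much Car3, and red cells hold Car1 and Car2. All 6 measured adipocyte markers were in the low band, with means of 4.22 to 4.59 and a summed linear signal of 126.3 to 127.9 in Pcyt2+/- and 127.2 on both wild type arrays. The 3 defining ones, Adipoq, Plin1 and Fabp4, had means over all arrays of 4.22, 4.47 and 4.31. All 9 muscle markers were there too, at 4.31 to 4.72, with 205.1 to 208.3 in Pcyt2+/- and 205.9 to 206.3 in wild type. For red cells, 4 of 13 listed markers were measured, none of them a globin, at 4.27 to 4.61 and summing to 86.6 to 87.7 in Pcyt2+/- and 87.1 to 87.4 in wild type. No marker of these lists passed over all genes by limma, and the part of adipocytes and muscle in the Car3 values and of red cells in the Car1 and Car2 values was not tested. The measured markers of endothelial cells (9), macrophages (8), bile duct cells (5), stellate cells (7), pancreas (4) and lymphocytes (6) were in the low band as well, at means of 4.21 to 4.91. None passed, and the medians of these lists ran from -0.0066 for lymphocytes (-0.0041 without Pcyt2+/- replicate 2) to 0.011 for endothelial cells, where Car4 is a known capillary enzyme (-0.0034 for endothelial cells without wild type replicate 4 and 0.0024 without Pcyt2+/- replicate 1). The hepatocyte markers had a median of -0.043 (0.050 without wild type replicate 3, and -0.020 and -0.025 without Pcyt2+/- replicates 3 and 4), and none passed.

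Car3 protein lies mainly around the central vein in rat liver, so genes of both zones of the lobule were read. Of 13 pericentral genes 0 passed, with 0 higher and 3 lower at an unadjusted p under 0.05 by limma and a median difference of -0.061 (-0.014 without Pcyt2+/- replicate 3 and -0.019 without wild type replicate 3). They were Oat, the ornithine aminotransferase (-0.36), Aldh3a2, a fatty aldehyde dehydrogenase (-0.14), and Slc1a2, a glutamate transporter (-0.061, with -0.019 without wild type replicate 3 and -0.103 without wild type replicate 4). Slc1a2 had a mean of 4.75, in the low band. Of 9 measured periportal genes 0 passed, with 1 higher and 3 lower and a median of -0.14 (-0.091 without Pcyt2+/- replicate 3). Cyp2f2, a periportal cytochrome P450, was the higher one (0.21). The lower ones were Arg1, Cps1 and Hsd17b13, a lipid droplet protein (-0.14) whose mean of 4.67 is in the low band. Of these, Arg1 passed in the settings named above and Hsd17b13 without wild type replicate 3 (limma, adjusted p = 0.0495). A higher mean in Pcyt2+/-, as Car3 had, was seen for 4 of the 13 and 4 of the 9, beside 48.1% of all genes. At an unadjusted p under 0.05 by limma, 1.86% of all genes were higher and 3.44% lower.

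The genes of nearest profile to Car3 over the 6 arrays were Cyp2c23, Inmt, Hsd3b3, Cyp2c29 and Aox3. Likeness was the root mean square difference between profiles, each centred on its mean over the 6 arrays, and ran from 0.287 to 0.335 for the 5 genes, where a flat profile lies 0.457 from Car3. Cyp2c23, an arachidonic acid epoxygenase, had 8.271, 8.307, 8.135 and 8.035 on the Pcyt2+/- arrays, against 8.139 and 7.618 on the wild type arrays. Its groups overlapped, and its difference of 0.31 was 0.048 without wild type replicate 4 and 0.57 without wild type replicate 3. Inmt, an indolethylamine methyltransferase, differed by 0.40 and by 0.011 without wild type replicate 4 (and by 0.79 without wild type replicate 3 and 0.23 without Pcyt2+/- replicate 2).

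For Hsd3b3, a steroid dehydrogenase, Cyp2c29, a cytochrome P450, and Aox3, an aldehyde oxidase, the groups did not overlap. Aox3 had 6.27 ± 0.16 (SD, n = 4) in Pcyt2+/- and 5.89 ± 0.010 (SD, n = 2) in wild type, a difference of 0.39. Hsd3b3 differed by 0.34 and Cyp2c29 by 0.24 (0.12 without wild type replicate 4). The genes were chosen for their likeness on these arrays, so their differences are descriptions as well.

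**Figure D4:**
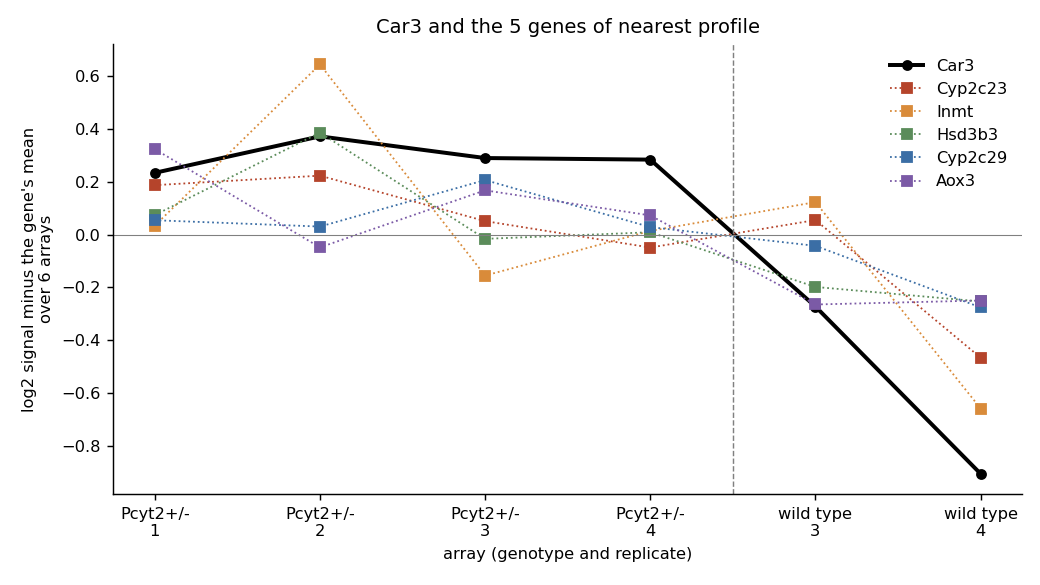
Log2 signal minus each gene's mean over the 6 arrays, for Car3 (black line) and the 5 genes of nearest profile (dotted lines), with the 4 Pcyt2+/- arrays left of the 2 wild type arrays. All 5 genes lie below their own mean at wild type replicate 4, less far than Car3, while Cyp2c23 and Inmt lie above it at wild type replicate 3, where Car3 does not. Their root mean square difference from Car3 is 0.287 to 0.335.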

How the data were processed

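Total RNA of snap-frozen liver was labelled with biotin from 100 ng per mouse, per the labels' protocols. The deposited log2 signals come from RMA, run by the authors, per the submitters' processing notes, with no version in the sources used here. The deposited table held 28996 probe sets on 6 arrays, of which 21218 rows had 1 gene symbol in the platform annotation, 1881 had several and 5897 are unnamed here. A gene with several rows (1386 genes) was represented by the row of highest mean, which gave 18820 genes. Gene order came from RefSeq (GRCm38.p6), which matched 21185 rows.

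Differences are Pcyt2+/- minus wild type. The test for genes that are no member was limma (version 3.58.1, R version 4.3.3; lmFit, then eBayes; two-sided, no covariates, Benjamini-Hochberg over all genes, threshold 0.05). Python 3.11.15 did the rest. The fit was tested on simulated data with each gene's own spread, by steps added to genes drawn from all 18820. It called 47 of 50 steps of 0.25 the right way, and 9 of 18620 genes without a step. Most of the 18820 genes are dim, so this says little about brighter genes such as Car3. The members and the 21 gene lists were chosen with earlier results of these data known. Named genes are the members, Pcyt2, up to 4 per list by smallest unadjusted p, those next to a member on the chromosome, markers of the cell types set beside a member, and, for members with a mean above 5, the 5 nearest profiles. The number of arrays limits the precision. The titles name separate mice. Other settings are given in the closing section.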

Additional observations from a re-analysis of the deposited data

Results flagged for a closer look

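Among 101 named genes, 9 had 1 Pcyt2+/- array far from the other 3, by the gap to its nearest neighbour over the range of the group (above Dixon's critical value for 4 samples), and chance flags about 1 in 20 groups. Of the carbonic anhydrases, Pcyt2+/- replicate 2 had the highest value for Car5b (4.392) and Car10 (4.339). Replicate 1 was highest for Aldh3a2 (5.183), Hsd3b5 (5.282) and Lep, the adipocyte hormone (4.301). Replicate 3 was highest for Cyp2c29 (8.094) and Prss2, a pancreatic trypsinogen (4.260), and lowest for Rab2a, the gene next to Car8 (5.386). Replicate 2 was lowest for Usp32, next to Car4 (4.316). Car3 was not among them.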

How the results depend on the processing

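The Car3 difference kept its direction under quantile normalization, median centring, subtraction of the floor, the mean of a gene's rows and every array left out, where it ran from 0.567 to 1.20. The number of carbonic anhydrases with separate groups was 3, and 3 to 5 with 1 array left out (5 without wild type replicate 4). With all 6 arrays, 5.67% of all genes were separate and higher, and 7.17% separate and lower. A group with fewer arrays separates more easily for any gene. The share over all genes was not computed with arrays left out, so those counts say nothing particular about the carbonic anhydrases. The count of genes past limma's threshold was 0 as reported, 2 with the replicate number as a block (replicate block), 3 with the floor subtracted, 3 among genes with a mean above 5, 9 with a trended and robust prior, and 0 to 9 with 1 array left out (9 without wild type replicate 3). Car3 was among these last 9 and passed in no other setting run, and since it was picked on this contrast that is no test of it. Arg1 was among the calls with the floor subtracted, above a mean of 5, with the trended and robust prior and without wild type replicate 3. Where 1 wild type array is left, its spread is assumed to be that of the Pcyt2+/- group. Counts of members were not run with the floor subtracted, where dim members have no value, and separate groups not with the block. The cause of these shifts was not tested. The labels do not say what the shared replicate numbers 3 and 4 mark. Deviations from the group means correlated at 0.113 for the arrays numbered 3 and 0.153 for those numbered 4 over 792 genes. They correlated as highly for arrays of unlike number (0.163 for Pcyt2+/- replicate 1 with wild type replicate 4, 0.129 for Pcyt2+/- replicate 2 with wild type replicate 3). With 2 wild type arrays the deviations of 1 mirror those of the other, so these correlations cannot tell whether arrays are paired. The main fit used no pairing. In the paired fit (the replicate block) only the arrays numbered 3 and 4 bear on the difference, since wild type has no replicate 1 or 2. Car3 differed by 0.876 there. The 2 calls with the block rest on the same arrays, so the block is no check on all 6. Subtracting the floor gave -0.974 for Pcyt2, which had a lower mean and did not pass in any setting run for it (-0.154 to -0.245 with 1 array left out). Differences of the other members under quantile normalization, centring, the block, the mean of rows, arrays left out and, for Car1 and Car8, the floor subtracted moved by less than the spread between arrays in 58 cases and by more in 4. List medians were read only with 1 array left out, and moved by less than that spread in 106 cases and by more in 20. For signals near the array median small changes cannot be read.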
